A study of Homo sapiens with 6 samples.

Results

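The kinetochore and spindle checkpoint genes are 40 genes, chosen by name, whose products form the kinetochore, its microtubule attachments, the checkpoint that reads them and the complexes that correct them. Of these, 30 had a named probe set, 1 each, among the 14884 genes that could be tested by name. The other 10 were not analysed here, because the probe annotation used here gave no probe set their names. They are MIS12, DSN1, NSL1, PMF1, NUF2, SPC24 and SPC25 of the outer kinetochore and CENPE, CENPF and ZWILCH of its corona, so the corona is not described at all.

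The kinetochore is a protein assembly built on the centromere of each chromosome, and it binds the spindle microtubules that pull sister chromatids apart. Its inner part, the constitutive centromere-associated network, sits on nucleosomes that carry the histone variant CENP-A, and its outer part holds the microtubule-binding NDC80 complex. While a kinetochore is unattached, the spindle assembly checkpoint keeps the anaphase-promoting complex from acting. Transcripts of many of these genes peak in the G2 and M phases, and dividing tumour cells generally hold more of them than resting cells.

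The cells were MDA-MB-231, a widely used line from a human triple-negative breast carcinoma. There were 3 arrays of cells with a knockout of NR1D1, whose product REV-ERBα is a nuclear receptor that binds heme and represses transcription in the circadian clock, and 3 of control cells. All 6 arrays were of cells that had received 200 µM hydrogen peroxide (H2O2) for 72 h, so both groups share the oxidant and no untreated cells were compared. Arrays of a group are titled as biological replicates, but no label gives the number of cultures or of knockout clones behind them. The p-values therefore rest on array-to-array spread, part of which may be technical.

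The values are log2 probe set values as deposited, with array medians between 5.18 and 5.22, and the number of arrays limits the precision. NR1D1 itself had no named probe set, so its transcript gave no check of the labels. Of 6 markers usually high in the line 4 were named, all with group means above 9, and VIM rose (9.35 in KO and 9.01 in control arrays, limma, adjusted p = 0.0337) while CD44 fell (9.51 and 9.86, adjusted p = 0.0324). Of 7 markers usually low in it 5 were named. ESR1 averaged 5.19 in both groups and PGR 4.05 in KO and 3.99 in control arrays, but the others were not low: KRT19 averaged 8.57 in KO and 8.15 in control arrays (adjusted p = 0.0441) and EPCAM 7.62 and 7.22 (adjusted p = 0.0286), both higher in KO, and GATA3 averaged 6.75 and 7.48 (adjusted p = 0.0017), lower in KO. Of 6 leukocyte markers 3 were named. Their mean log2 value ran from 6.33 to 6.58 on KO arrays and from 6.59 to 6.72 on control arrays. The highest was CD68, a lysosomal gene that tumour cells also express, at 10.42 in KO and 10.87 in control arrays. CD68 fell by 0.45 on the log2 scale (limma, adjusted p = 0.0167). CD14, at 4.66 in KO and 4.95 in control arrays, and LYZ, at 4.20 in both, lay below the array medians. The mean of 2 of 6 fibroblast markers ran from 3.81 to 4.16 on KO and from 3.88 to 3.97 on control arrays, and that of 3 of 4 endothelial markers from 5.37 to 5.60 on KO and from 5.36 to 5.46 on control arrays, with KDR higher in KO (log2 change 0.50, adjusted p = 0.0063) and PECAM1 and VWF not passing (-0.16 and -0.07). Their part in the results on kinetochore genes was not tested.

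Kinetochore and checkpoint transcripts were mostly higher in NR1D1 KO cells, by modest amounts. Of 30 measured genes 15 rose and 1, CENPI, fell (limma with Benjamini-Hochberg adjustment over all 14884 genes, threshold 0.05), and 14 did not pass. Over all genes, 4.74% were higher and 4.74% lower by the same test. The median log2 change of the 30 genes was 0.38, or 1.30-fold, against 0.0039 over all genes, and 27 of them were above 0, against 51.0% of all genes. The changes ran from -0.35 for CENPI to 0.73 for CDCA8 and CENPH. All 3 KO arrays lay above all 3 control arrays for 22 of the 30 genes, against 15.1% of all genes, and below them for CENPI, against 13.6% of all genes. In RNA from a whole culture, more cells in division and more transcript per cell cannot be told apart. The genes that rose were 12 without KO replicate 1 or without control replicate 2, 8 without KO replicate 2 or 3, and 6 without control replicate 1 or 3.

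**Figure D1:**
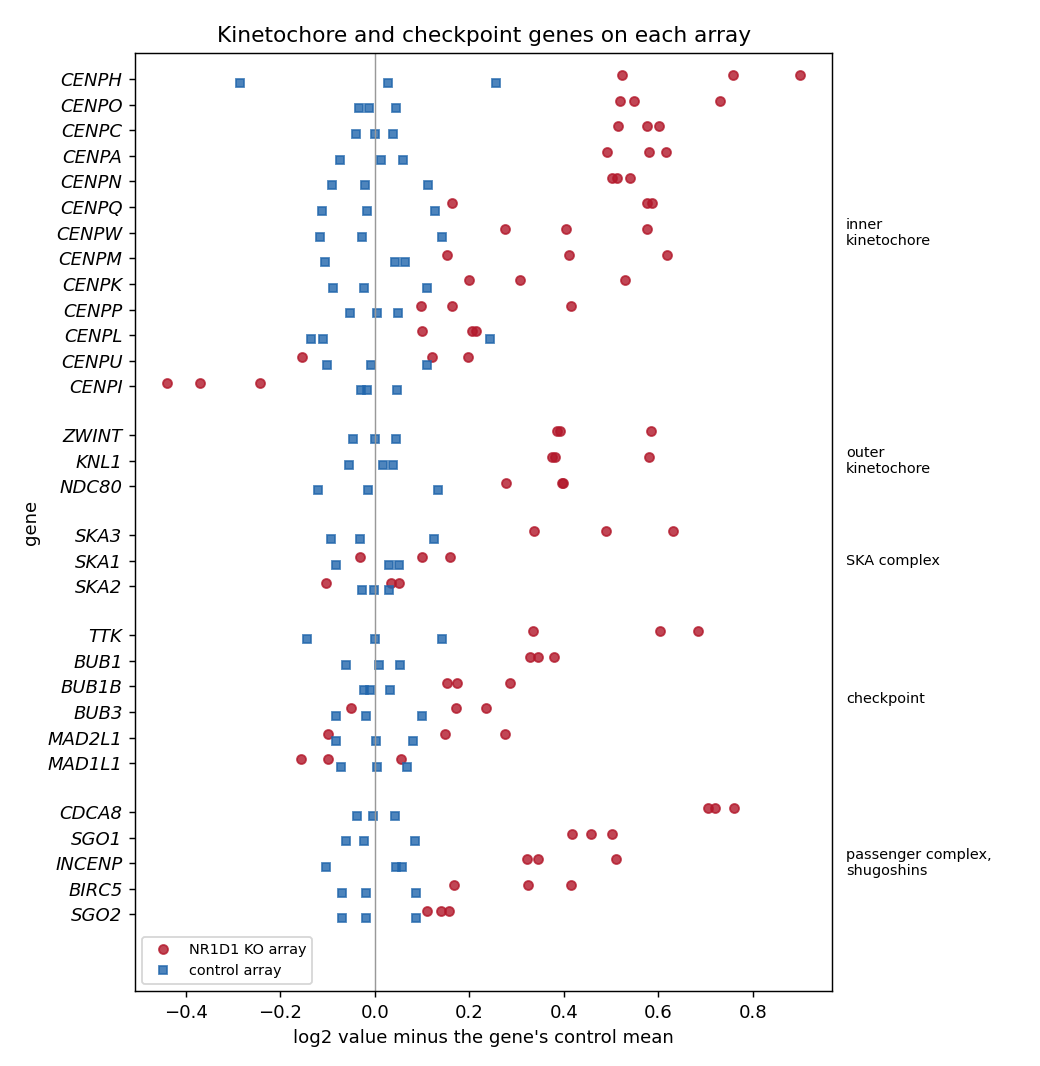
Log2 value of each of 30 genes on each array, as the difference from the gene's control mean, with genes in rows by role (red circles, 3 NR1D1 KO arrays, blue squares, 3 control arrays). The KO arrays stand to the right of the control arrays without overlap for 22 genes and to the left for CENPI.

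The genes differed in how far the arrays of a group stood apart. The pooled SD within groups had a median of 0.0942 over the 30 genes (log2) and 0.125 over all genes, and ran from 0.0347 to 0.235 among the 30. The median of the 30 genes, each set against its control mean, was 0.34, 0.38 and 0.36 on KO replicates 1, 2 and 3, and -0.06, 0.06 and -0.0043 on control replicates 1, 2 and 3. The groups thus did not overlap in this median. Control replicate 2 was the highest control array for 19 of the 30 genes and control replicate 1 the lowest for 20, and KO replicate 1 was the lowest KO array for 16. The 16 proliferation markers described further below deviated in the same direction on every array but control replicate 3, with median deviations from the group mean of -0.0871, 0.0559 and 0.0712 on KO replicates 1, 2 and 3 and of -0.0397, 0.0579 and 0.0049 on control replicates 1, 2 and 3. The part of this spread between arrays in the results was not tested.

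Promoter sequences are shown because many of these genes moved together and G2 and M phase genes are known to share promoter elements. These are the cell cycle genes homology region (CHR), bound by the DREAM and MYB-MuvB complexes, CCAAT boxes, bound by NF-Y, and E2F sites. RefSeq windows of build GRCh38.p14, from 250 bases before to 50 bases after the annotated start, were at hand for 23 of the 30 genes, and not for CENPH, CENPL, CENPM, KNL1, BUB3, TTK and BIRC5. The letters searched on both strands were TTTGAA or TTCGAA for the CHR, CCAAT for the NF-Y box, and TTTCCCGC, TTTGGCGC or TTTCGCGC for E2F. The windows of the 6 called genes with the largest change and at least 1 match follow, each 5′ to 3′ on its gene's strand, with every match in capitals. CDCA8 is at chr1:37692266-37692565, plus strand, CENPO at chr2:24793175-24793474, plus strand, CENPC at chr4:67545454-67545753, minus strand, CENPA at chr2:26785806-26786105, plus strand, CENPN at chr16:81006964-81007263, plus strand and SKA3 at chr13:21176503-21176802, minus strand.
CDCA8: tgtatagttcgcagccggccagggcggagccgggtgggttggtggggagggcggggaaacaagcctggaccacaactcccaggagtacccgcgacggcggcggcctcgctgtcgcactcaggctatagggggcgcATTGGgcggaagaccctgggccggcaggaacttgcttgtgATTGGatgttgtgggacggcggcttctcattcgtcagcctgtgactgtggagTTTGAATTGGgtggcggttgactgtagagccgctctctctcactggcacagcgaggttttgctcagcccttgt
CENPO: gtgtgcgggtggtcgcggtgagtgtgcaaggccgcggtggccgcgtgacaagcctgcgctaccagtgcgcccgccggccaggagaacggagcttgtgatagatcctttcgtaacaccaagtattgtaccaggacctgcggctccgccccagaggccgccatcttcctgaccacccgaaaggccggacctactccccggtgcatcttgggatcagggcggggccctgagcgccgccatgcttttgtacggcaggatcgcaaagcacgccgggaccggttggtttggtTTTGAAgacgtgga
CENPC: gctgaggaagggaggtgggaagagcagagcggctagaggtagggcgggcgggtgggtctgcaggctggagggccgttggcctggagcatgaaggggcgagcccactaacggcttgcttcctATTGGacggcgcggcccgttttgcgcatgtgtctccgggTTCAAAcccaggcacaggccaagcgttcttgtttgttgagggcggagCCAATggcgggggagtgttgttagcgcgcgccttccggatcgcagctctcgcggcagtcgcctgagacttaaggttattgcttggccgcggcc
CENPA: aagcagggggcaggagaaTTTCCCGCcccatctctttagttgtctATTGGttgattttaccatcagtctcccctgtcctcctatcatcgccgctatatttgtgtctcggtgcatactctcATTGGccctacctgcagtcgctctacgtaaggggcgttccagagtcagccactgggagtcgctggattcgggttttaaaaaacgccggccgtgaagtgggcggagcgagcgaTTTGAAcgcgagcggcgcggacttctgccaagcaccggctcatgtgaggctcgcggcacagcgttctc
CENPN: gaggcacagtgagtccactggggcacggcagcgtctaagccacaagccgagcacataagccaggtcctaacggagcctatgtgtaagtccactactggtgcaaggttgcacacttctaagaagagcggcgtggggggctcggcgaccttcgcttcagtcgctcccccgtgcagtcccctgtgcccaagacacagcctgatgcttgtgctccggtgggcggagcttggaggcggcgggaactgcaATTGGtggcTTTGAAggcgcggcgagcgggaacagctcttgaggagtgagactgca
SKA3: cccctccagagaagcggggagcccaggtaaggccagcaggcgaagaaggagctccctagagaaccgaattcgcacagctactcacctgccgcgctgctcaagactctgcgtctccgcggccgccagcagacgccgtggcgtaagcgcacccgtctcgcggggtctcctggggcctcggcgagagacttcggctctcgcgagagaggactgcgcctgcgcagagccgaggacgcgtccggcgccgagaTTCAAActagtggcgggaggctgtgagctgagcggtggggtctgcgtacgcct

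CHR letters stood in the windows of 12 of the 12 genes that rose and had a window, and of 3 of the 11 others, which were BUB1B, MAD2L1 and SKA1. Among promoters of all tested genes 13.2% of 10749 windows held them, and among all RefSeq promoters 16.6% of 27305. CCAAT letters stood in 9 of the 12 windows of genes that rose and in 6 of the 11 others, against 36.0% of the windows of tested genes. Both kinds of letters occurred together in 9 of the 12 and, of the 11 others, in MAD2L1, against 5.47% of windows of tested genes. E2F letters were found in CENPA and CENPU alone among the 23, against 3.73% of windows of tested genes. CENPI, the gene that fell, and CENPP and MAD1L1 held none of the letters searched. Of 16 CHR matches 15 began within 50 bases of the annotated start, and the other lay in CENPC at position -90, counted from that start. In CDCA8 the CHR match runs into a CCAAT match read on the opposite strand, as the joined capitals TTTGAATTGG show. These shares describe letters in a window, they are not binding sites, and they were not tested between groups of genes. Which genes count as having risen depends on the threshold. Among the 12, CENPW, BUB1 and INCENP missed it when any 1 array was left out. Among the 11, CENPQ and CENPK held no CHR letters and had log2 changes of 0.44 and 0.35. NDC80 and BUB1, among the 12, had 0.36 and 0.35.

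**Figure D2:**
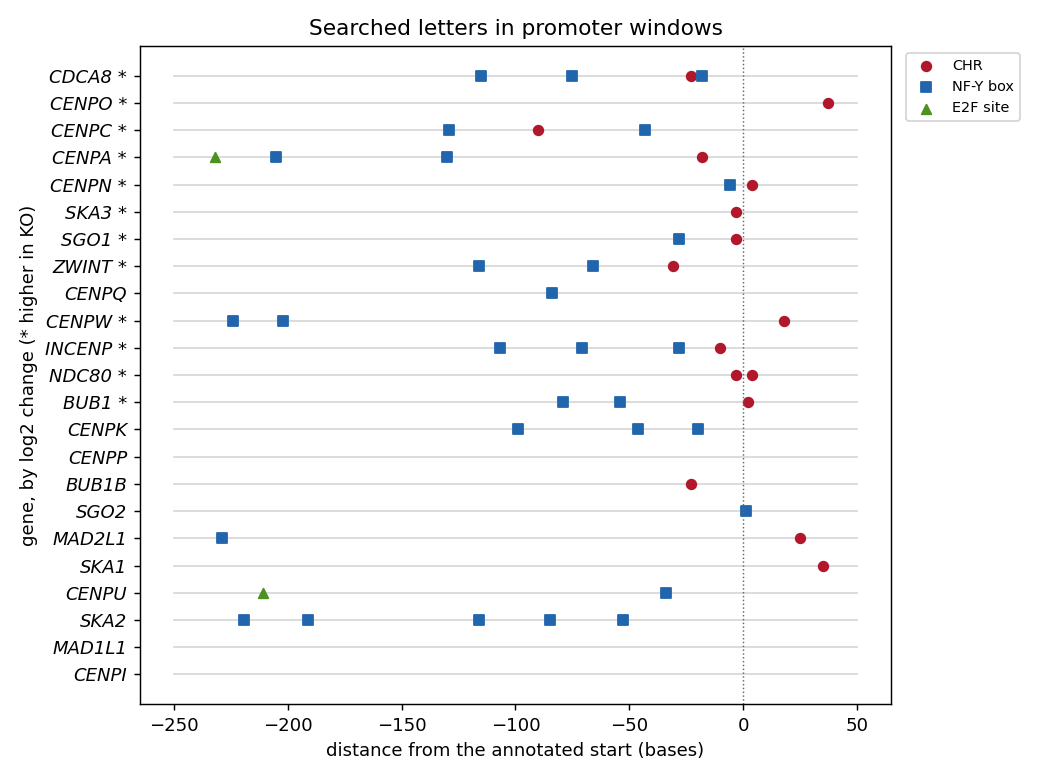
Position of CHR letters (red circles), NF-Y boxes (blue squares) and E2F letters (green triangles) relative to the annotated start in 23 promoter windows, with genes ordered by log2 change and those that rose marked by an asterisk. CHR letters lie in all 12 marked rows and in 3 of the 11 others, mostly within 50 bases of the start.

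The inner kinetochore gave the largest group, with all 13 of its genes measured, of which 6 rose, 1 fell and 6 did not pass, at a median log2 change of 0.42. Over all genes 4.74% rose and 4.74% fell, and 15.1% had all KO arrays above all control arrays. CENPA, the histone H3 variant that marks the centromere, read 7.75, 7.63 and 7.72 on KO arrays and 7.06, 7.15 and 7.20 on control arrays. Every KO array exceeded every control array, and the gene was 1.48-fold higher (limma, adjusted p = 0.0042, 95% interval of the log2 change 0.38 to 0.75). CENPC, which ties that nucleosome to the outer kinetochore, read 8.06, 7.97 and 8.03 on KO arrays and 7.46, 7.42 and 7.50 on control arrays. Its groups were as well separated, at 1.48-fold higher in KO (adjusted p = 0.0029). CENPN, which reads the CENP-A nucleosome together with CENPL, measured 8.91, 8.87 and 8.88 on KO arrays and 8.35, 8.48 and 8.28 on control arrays. The KO arrays agreed closely with each other and all stood above the controls (1.43-fold higher, adjusted p = 0.0070). Its partner CENPL changed by 0.17 on the log2 scale (95% interval -0.09 to 0.44, adjusted p = 0.427), with control replicate 2, at 7.71, above all KO arrays. CENPA, CENPC and CENPN passed under all 14 alternatives.

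Partners in the 4-gene subcomplex of CENPH, CENPI, CENPK and CENPM went different ways. CENPH read 6.12, 6.50 and 6.35 on KO arrays and 5.31, 5.85 and 5.62 on control arrays. The lowest KO array was above the highest control array, but both groups were spread widely, and the gene was 1.66-fold higher with a 95% interval of 0.38 to 1.07 for the log2 change (adjusted p = 0.0212). CENPI was the one member that fell, with 9.01, 8.81 and 8.88 on KO arrays and 9.30, 9.24 and 9.22 on control arrays. All KO arrays were below all control arrays, at a log2 change of -0.35 (95% interval -0.54 to -0.16, adjusted p = 0.0357). CENPK and CENPM did not pass, although their KO arrays stood above their control arrays. CENPK changed by 0.35 (adjusted p = 0.0876) and CENPM by 0.39 (adjusted p = 0.0923) on the log2 scale. The difference in change between partners was not tested. CENPH missed the threshold without KO replicate 2 or 3 or control replicate 1 or 3 (adjusted p of 0.0571 to 0.0762), and CENPI without any array but KO replicate 1 (adjusted p of 0.0922 to 0.119) or with the replicate block (0.064).

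The subcomplex of CENPO, CENPP, CENPQ and CENPU, which helps to bring the mitotic kinase PLK1 to the centromere, was likewise uneven. CENPO read 8.56, 8.38 and 8.35 on KO arrays and 7.88, 7.80 and 7.82 on control arrays. The groups were far apart, the gene was 1.52-fold higher (adjusted p = 0.0043), and it passed under all 14 alternatives. CENPQ changed by 0.44 (adjusted p = 0.0748) and CENPP by 0.23 (adjusted p = 0.231) on the log2 scale, each with its KO arrays above its control arrays. CENPU, the docking subunit for PLK1, read 7.98, 8.25 and 8.33 on KO arrays and 8.03, 8.24 and 8.12 on control arrays. Its groups overlapped, with a log2 change of 0.06 whose 95% interval ran from -0.20 to 0.31. CENPW, which pairs with CENPT in a histone-like fold, read 7.03, 6.90 and 7.20 on KO arrays and 6.51, 6.77 and 6.60 on control arrays. It was 1.34-fold higher without overlap (adjusted p = 0.0471), but missed the threshold when any 1 array was left out (adjusted p of 0.0535 to 0.152), and with all arrays under quantile normalization (0.0587), median centring (0.0509) or the replicate block (0.0909).

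**Figure D3:**
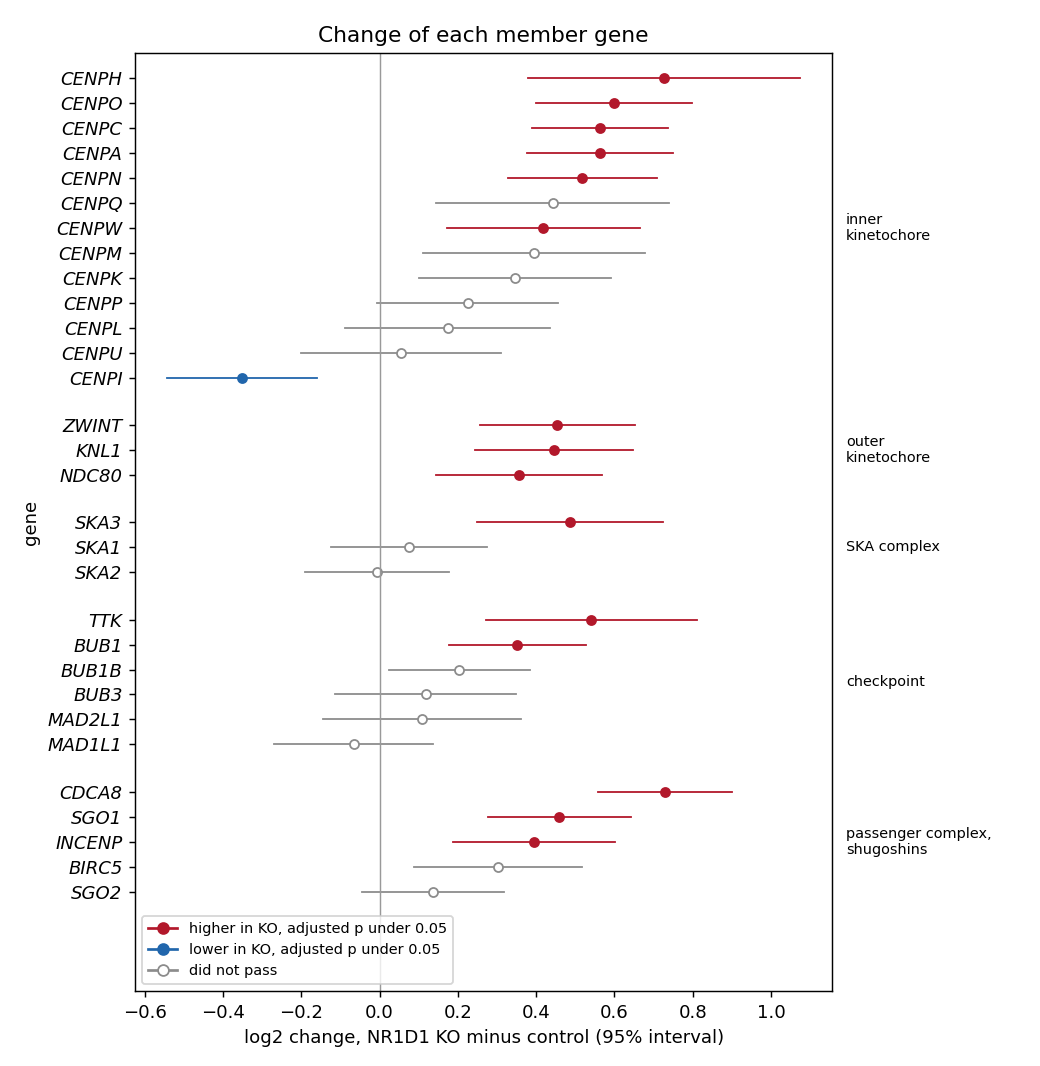
Log2 change of each of 30 genes, NR1D1 KO minus control, with its 95% interval from limma, in rows by role (filled red, rose, filled blue, fell, open grey, did not pass). The 15 genes that rose lie between 0.35 and 0.73, and CENPI lies at -0.35.

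Each of the 3 measured genes of the outer kinetochore rose, out of 10 listed, against 4.74% of all genes. KNL1, the scaffold on which the checkpoint proteins gather, read 8.69, 8.90 and 8.70 on KO arrays and 8.26, 8.36 and 8.33 on control arrays. ZWINT, which binds KNL1, read 8.16, 8.16 and 8.35 on KO arrays and 7.73, 7.82 and 7.77 on control arrays. NDC80, the microtubule-binding subunit that gives its complex its name, read 8.70, 8.70 and 8.58 on KO arrays and 8.18, 8.44 and 8.29 on control arrays. No KO array of these genes overlapped the controls, where 15.1% of all genes had all KO arrays above all control arrays. KNL1 was 1.36-fold (adjusted p = 0.0171), ZWINT 1.37-fold (adjusted p = 0.0149) and NDC80 1.28-fold higher (adjusted p = 0.0487). All of them missed the threshold without control replicate 1 or 3 (0 of 3 rose, with adjusted p from 0.0585 for ZWINT to 0.157 for NDC80). NDC80 also missed it without any 1 of the KO arrays, with arrays centred on their median (0.0541) and with the replicate block (0.0796), and KNL1 without KO replicate 2.

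In the SKA complex, which steadies the grip of the NDC80 complex on microtubules, 1 of 3 genes rose, against 4.74% of all genes. SKA3 read 8.71, 9.01 and 8.86 on KO arrays and 8.28, 8.50 and 8.34 on control arrays. It was 1.40-fold higher without overlap (adjusted p = 0.0234), and missed the threshold without KO replicate 2 or 3 or control replicate 1 or 3 (adjusted p of 0.0643 to 0.0875). SKA2 read 7.67, 7.52 and 7.65 on KO arrays and 7.62, 7.59 and 7.65 on control arrays. These values overlapped, with a 95% interval of the log2 change from -0.19 to 0.18. The log2 change of SKA3 was 0.49, with a 95% interval of 0.25 to 0.72. SKA1 changed by 0.08 (95% interval -0.12 to 0.27). The difference between SKA3 and its partners was not tested.

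Of the 6 checkpoint genes 2 rose, both of them kinases, against 4.74% of all genes, and 4 did not pass. TTK, also called MPS1, the kinase at the head of the checkpoint, read 8.84, 9.11 and 9.19 on KO arrays and 8.36, 8.65 and 8.51 on control arrays. BUB1, which phosphorylates histone H2A at the centromere and so recruits shugoshin, read 9.99, 10.02 and 9.97 on KO arrays and 9.58, 9.70 and 9.65 on control arrays. The groups of both genes were apart, at 1.45-fold for TTK (adjusted p = 0.0254) and 1.28-fold for BUB1 (adjusted p = 0.0252). BUB1B, whose product BUBR1 belongs to the inhibitor of the anaphase-promoting complex, changed by 0.20 (adjusted p = 0.163) with its KO arrays above its control arrays. Values of the remaining checkpoint genes overlapped between groups. The adaptor gene BUB3 changed by 0.12 (95% interval -0.11 to 0.35) and MAD2L1, which encodes the MAD2 that binds CDC20, by 0.11 (95% interval -0.14 to 0.36). MAD1L1, the anchor of MAD2 at unattached kinetochores, read 7.09, 7.15 and 7.30 on KO arrays and 7.25, 7.32 and 7.18 on control arrays, with a change of -0.07 (95% interval -0.27 to 0.14). BUB1 missed the threshold when any 1 array was left out (adjusted p of 0.0527 to 0.0949) or with the replicate block (0.061) and TTK without KO replicate 2 or 3 or control replicate 1 or 3 (adjusted p of 0.0761 to 0.0897).

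The chromosomal passenger complex, which loosens faulty attachments through the kinase Aurora B, and the shugoshins, which guard centromeric cohesin, made up the last 5 genes. CDCA8, the gene of the passenger subunit borealin, read 9.12, 9.17 and 9.14 on KO arrays and 8.41, 8.38 and 8.46 on control arrays. It had the largest log2 change of the 30 genes, at 0.73 (1.66-fold, 95% interval 0.56 to 0.90, adjusted p = 0.00084) and no overlap between groups. INCENP, the scaffold of the complex, read 9.38, 9.20 and 9.22 on KO arrays and 8.93, 8.77 and 8.92 on control arrays. Its groups did not overlap either, and it was 1.31-fold higher (adjusted p = 0.0314). BIRC5, the gene of survivin, did not pass, at a log2 change of 0.30 (adjusted p = 0.0878), although its KO arrays stood above its control arrays. SGO1 read 8.92, 9.00 and 8.96 on KO arrays and 8.44, 8.48 and 8.58 on control arrays. It was 1.37-fold higher (adjusted p = 0.0099), with each KO array above each control array. SGO2 read 6.91, 6.95 and 6.93 on KO arrays and 6.73, 6.88 and 6.77 on control arrays. The groups came close without overlapping, at a log2 change of 0.14 (95% interval -0.05 to 0.32, adjusted p = 0.364). CDCA8 and SGO1 passed under all 14 alternatives, while INCENP missed the threshold when any 1 array was left out (adjusted p of 0.0616 to 0.103).

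Of 88 measured genes on 7 other cell division lists 25 rose and 1 fell, so 26 passed, against 9.49% of all genes in either direction. Other genes that work at the kinetochore rose more often than they fell. Of 28 listed, 22 were measured, and 9 of them rose and none fell, with a median log2 change of 0.32. At an unadjusted p below 0.05, 15 of the 22 differed, against 22.8% of all genes, and 1 (CENPV) also fell when the 50% of genes with the lowest means were dropped. SPDL1, the gene of spindly, which brings dynein to kinetochores, was 1.67-fold higher (adjusted p = 0.0040), OIP5, of the complex that primes centromeres for CENP-A loading, 1.45-fold (adjusted p = 0.0089), the mitotic kinase gene PLK1 1.44-fold (adjusted p = 0.0091) and HJURP, the CENP-A chaperone, 1.43-fold (adjusted p = 0.0334). AURKB, the kinase partner of CDCA8, INCENP and BIRC5, was 1.25-fold higher (adjusted p = 0.0373), and ITGB3BP, the partner of CENPO, CENPP, CENPQ and CENPU known as CENP-R, 1.25-fold (adjusted p = 0.0499). CENPT, the partner of CENPW, changed by -0.04 on the log2 scale (adjusted p = 0.868). The rises were 6 without KO replicate 1, 3 without KO replicate 2 or control replicate 1, 4 without KO replicate 3 and 5 without control replicate 2 or 3.

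In the steps around the kinetochore a smaller share of genes passed than among the 30 kinetochore genes. Of 18 measured genes of the anaphase-promoting complex and its regulators 2 rose and none fell. This was 11.1% called higher, against 4.74% of all genes. At an unadjusted p below 0.05, 5 differed, or 27.8%, against 22.8% of all genes. The median log2 change of this list was 0.07. The 2 were the activator CDC20, the target of the checkpoint (1.48-fold, adjusted p = 0.0054), and the inhibitor FBXO5 (1.34-fold, adjusted p = 0.0344), and 1 of these rose when any array but KO replicate 1 was left out. Of 13 genes of cohesin and separase 1 rose and 1 fell, at a median of 0.14, so each direction held 7.69% of them, against 4.74% of all genes. These were the securin gene PTTG1 (1.41-fold higher, adjusted p = 0.0453) and the cohesin subunit gene STAG2 (log2 change -0.44, adjusted p = 0.0121). The rise was lost without KO replicate 2 or control replicate 1 or 3, where 0 rose, and the fall without control replicate 3, where 0 fell. More rose in other settings: 2 with quantile normalization or weighted arrays, 3 without the dimmest 25% of genes, and 4 without the dimmest 50% or with a trend and robust prior. Of 8 condensin genes 2 were measured, and neither passed (SMC2, log2 change 0.28, adjusted p = 0.0527, and SMC4, 0.17, adjusted p = 0.300). In that list 1 rose without the dimmest 25% or 50% of genes, with a trend and robust prior or with weighted arrays.

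Genes that mark proliferating cells were also higher in part. Of 16 proliferation markers 8 rose and none fell (13 differed at an unadjusted p below 0.05), against 4.74% of all genes called higher and 22.8% at that unadjusted p, and their median log2 change was 0.36. The thymidylate synthase gene TYMS was 1.52-fold (adjusted p = 0.0211), the replicative helicase gene MCM3 1.50-fold (adjusted p = 0.0044), the cyclin gene CCNB2 1.50-fold (adjusted p = 0.0303) and the helicase gene MCM4 1.44-fold higher (adjusted p = 0.0066). The rises were 4 without KO replicate 2, 5 without KO replicate 3 or control replicate 2, and 3 without control replicate 1 or 3. Of 16 measured cell cycle transcription factors 5 rose and none fell, with a median of 0.09. These 5, or 31.2%, were also all that differed at an unadjusted p below 0.05, against 4.74% of all genes called higher and 22.8% at that unadjusted p. They included the repressor E2F8 (1.46-fold, adjusted p = 0.0046), the MuvB subunit gene LIN52 (1.44-fold, adjusted p = 0.0082), FOXM1, an activator of G2 and M phase genes (1.38-fold, adjusted p = 0.0095), and E2F3 (1.30-fold, adjusted p = 0.0482). Here 3 rose without any 1 array other than KO replicate 3, and also 3 with quantile normalization or the replicate block. CDKN2A, the only 1 of 7 listed cell cycle inhibitors that was named, changed by -0.05 (adjusted p = 0.829). It averaged 5.07 in KO and 5.12 in control arrays, below the array medians, so its value says little about a change. Whether the kinetochore genes changed by more than other genes of dividing cells was not tested.

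**Figure D4:**
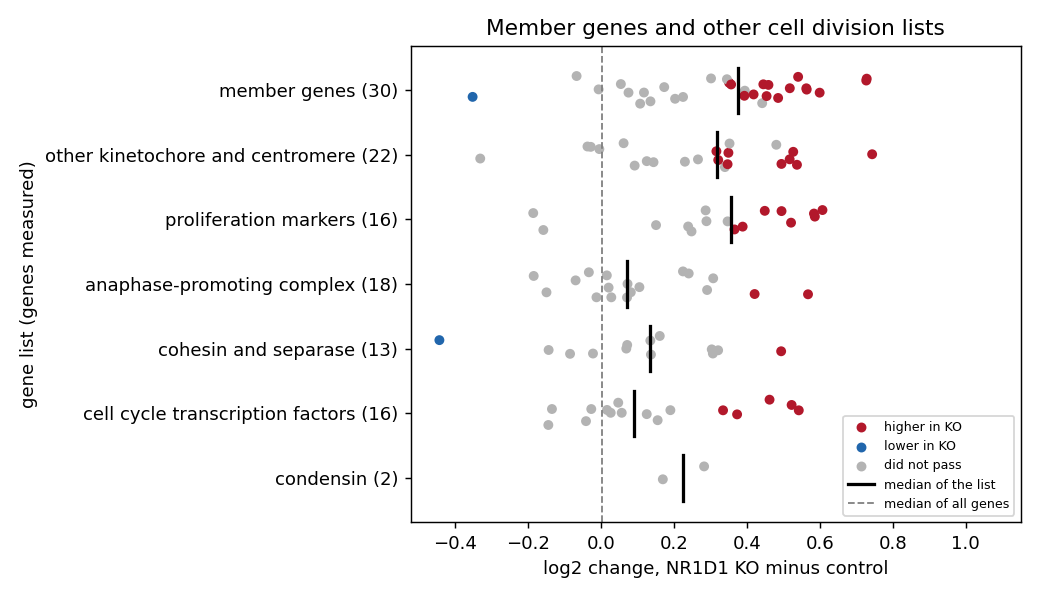
Log2 change of each gene, NR1D1 KO minus control, in 7 lists with the number of genes measured (red, higher, blue, lower, grey, did not pass), with the list's median as a black bar and the median of all 14884 genes as a dashed line. All 7 medians stand to the right of that line, which lies at 0.0039. Those of the kinetochore genes, the other kinetochore genes and the proliferation markers, at 0.38, 0.32 and 0.36, stand farthest from it.

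The 30 genes are spread over 17 chromosomes, and most of them lay above the genes around them. Each gene was set beside up to 20 measured protein-coding genes, the nearest 10 on either side in the order of the RefSeq assembly. The median of these neighbour medians was 0.0117 on the log2 scale, and 28 of the 30 genes lay above their neighbours. Over all 30, the difference from the neighbours had a median of 0.35. CENPI, on chromosome X, was one of the 2 exceptions. Of its 20 neighbours 3 measured above 0, 6 fell and none rose, with a median of -0.18. MAD1L1 was the other, at -0.07 beside a neighbour median of -0.0144. CENPU, on chromosome 4, also stood among genes that were lower in KO cells, with 7 of 20 falling and a median of -0.19, as did SGO2, on chromosome 2, with 5 of 20 falling and a median of -0.0868. CENPN, on chromosome 16, had 3 of 20 neighbours that rose and the highest neighbour median, at 0.22, less than its own change of 0.52. Over all tested genes, protein-coding or not, 4.74% rose, 4.74% fell and 51.0% were above 0. The part of a gene's neighbourhood in its change was not tested.

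**Figure D5:**
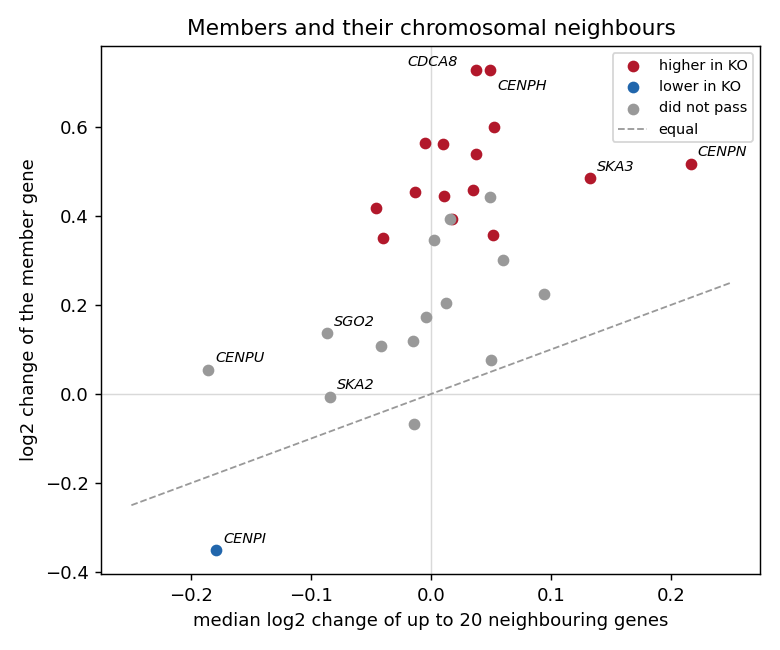
Log2 change of each of the 30 genes (vertical axis) against the median log2 change of its up to 20 nearest measured protein-coding genes (horizontal axis), with a dashed line where both are equal (red, rose, blue, fell, grey, did not pass). All but CENPI and MAD1L1 lie above the line, and CENPI and CENPU stand at the left, where neighbours were lower.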

How the data were processed

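Total RNA for 6 arrays was copied to cDNA with a GeneChip whole-transcript kit and biotin-labelled, per the labels' protocols. The authors deposited log2 probe set values, read as log2 from their range of 1.16 to 13.75. Array medians differed little, and the values were used with no further normalization. How arrays were scanned, corrected, summarized and, if at all, normalized is not given in the sources, and no detection calls were at hand. Of 53617 probe sets, 16098 had 1 gene symbol in the platform annotation, none had several and 37519 had none. Symbols were looked up in the RefSeq table (GRCh38.p14) by gene identifier, kept where none matched, and 0 changed. The probe set with the highest mean stood for each gene, and none was filtered out.

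NR1D1 KO and control arrays (3 each, grouped by title) were fitted in R 4.3.3 by limma 3.58.1 (lmFit, then eBayes with a constant prior, two-sided), with Benjamini-Hochberg adjustment over 14884 genes. The genes and lists were chosen with earlier results of these data known. The text names all measured members and, from each other list, the called genes that changed most, at most 4, or else at most 2 with the lowest p. AURKB, ITGB3BP, CENPT and the marker genes were added as partners or checks. The fit was tested on simulated data of known change. It recovered 43.9% of simulated log2 changes of 0.5 and 91.0% of those of 1. A gene that did not pass can therefore still have changed by an amount like those reported here. Figures were drawn with matplotlib 3.10.9.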

Additional observations from a re-analysis of the deposited data

How the results depend on the processing

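The median log2 change of the 30 genes stayed between 0.34 and 0.39 under 14 alternatives, which were quantile normalization, median centring, dropping the 25% or 50% of genes with the lowest means, the mean of a gene's probe sets, a trend and robust prior, weighted arrays, a replicate block, and each of 6 arrays left out. CENPH was dropped with the dimmest 50% of genes and has no value there. The count that rose was 13 to 19 over the alternatives that keep all arrays, against 15. With 1 array left out, fewer samples remain in the fit, and the counts were lower: 6 to 12 kinetochore genes rose and 0 to 1 fell, 11 to 21 other genes of the pathway passed (26 with all arrays), and 723 to 1049 of all genes passed (1412 with all arrays). Of the 16 called genes, 6 (CENPA, CENPC, CENPN, CENPO, CDCA8 and SGO1) passed under all 14 alternatives.

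The replicate numbers do not pair the arrays by the labels, and deviations of same-numbered arrays correlated at 0.0547, 0.0681 and -0.106 over 14884 genes, so not every array went best with its own number. With the replicate block, 13 kinetochore genes rose and 0 fell, 20 other genes of the pathway passed and 1050 of all genes. Signs turned only for 2 genes that did not pass. With 1 array left out, CENPU ran from -0.0166 to 0.16 and SKA2 from -0.0343 to 0.0425. SKA2 was also at 0.0036 with arrays centred on their median. The causes were not tested.

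Signal over background limits dim genes, since the values carry no detection calls and a change near the floor of the array can be understated.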

Other observations

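CENPI and STAG2, the 2 genes of the cell division lists that fell, both lie on chromosome X, which was looked at after their values were seen. Of 20 measured protein-coding neighbours of STAG2, 1 was above 0 and 9 fell (limma, adjusted p under 0.05), with a median log2 change of -0.42, close to the -0.44 of STAG2 itself. Over chromosome X, 140 of 428 measured protein-coding genes were above 0 and 17.3% fell, with a median log2 change of -0.08. Other chromosomes of the members also leaned one way. Chromosome 13, with SKA3, and chromosome 4, with CENPC, CENPU and MAD2L1, had 11.9% and 10.8% of genes lower in KO cells, at medians of -0.12 and -0.0358. On chromosome 1, with CENPL and CDCA8, 8.33% of genes were lower and 4.5% higher, at a median of -0.0095. Chromosome 9, with CENPP, and chromosome 6, with TTK, CENPQ and CENPW, had 16.5% and 15.9% of genes higher in KO cells. Chromosome 5, with CENPH and CENPK, had 9.87% higher, and chromosome 2, with CENPA, CENPO, BUB1 and SGO2, 9.51%. Over all genes, 4.74% passed in each direction. That share counts genes of every kind and the chromosome shares only protein-coding genes, so the 2 are not like for like. The part of these shifts in the members' values was not tested.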
